A study of Mus musculus with 23 samples.

Results

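The genes described are 10 mouse genes of the IL-1, IL-6, TNF and inflammasome systems, namely Il1a, Il1b, Il1rn, Il18, Il6, Tnf, Il10, Nlrp3, Pycard and Casp1. They were chosen by symbol, and all 10 were among the 33280 gene symbols of the count table. RNA sequencing of sorted brain macrophages gave 23 libraries in 5 groups, and the 10 genes were followed in each of them.

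The cytokines IL-1α and IL-1β act on the same receptor, and the IL-1 receptor antagonist, encoded by Il1rn, occupies that receptor without signalling. IL-1β and IL-18 are made as inactive precursors that caspase-1 cleaves once a sensor such as NLRP3 and the adaptor ASC, encoded by Pycard, have assembled into an inflammasome. TNF and IL-6 are further early cytokines of activated macrophages, whereas IL-10 dampens their production. In the brain, microglia and the macrophages of the meninges and of the perivascular space are resident sources of these factors after ischaemic injury.

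All animals were Ccr2creERT2/+ R26tdT/tdT mice, in which tamoxifen switches on the red protein tdTomato (tdT) in cells that transcribe Ccr2, so that progeny of monocytes can be told by their colour. They were gavaged for 7 days with 200 mg/kg BLZ945, which blocks the receptor for CSF-1 and so removes most brain macrophages, or with vehicle (CTL), and received 2 mg tamoxifen on the last day of gavage and 2 and 4 days later. After 8 weeks of repopulation, a clot was raised in the middle cerebral artery with thrombin, and cells were sorted 1 day after this stroke. The groups were microglia (MG, CD206-negative) of CTL mice (n = 5) and of BLZ945 mice (n = 5), tdT- subdural CNS-associated macrophages (sdCAMs, CD206-positive) of CTL mice (n = 5) and of BLZ945 mice (n = 5), and tdT+ sdCAMs of BLZ945 mice (n = 3). Cells came from coronal brain slices without choroid plexus, and the sort left out Ly6C+, Ly6G+ and CD11c+ cells. Every animal had a stroke and carried the reporter, so no library shows the level without injury, and there were no tdT+ libraries of CTL mice. Ccr2 drives the mark only in cells that transcribed it around the tamoxifen doses, so a tdT- cell need not lack a monocyte origin. CTL libraries held 1 animal and, per the methods, BLZ945 libraries held 2 pooled animals, so pooling went with treatment. The library names of BLZ945 F2 give only 1 animal number, against 2 in the others. Libraries are named F1, F2, F3, M1 and M2, and lists of values follow that order, or F2, F3 and M2 for tdT+ sdCAMs. Within a treatment the same name means the same animal or pool, and between treatments it means different animals.

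Library totals ranged from 9433960 to 13276081 counts, at which 3 counts, taken as the smallest level told from 0, equalled between 0.230 and 0.334 CPM, the count scaled to the TMM-adjusted library total on the usual CPM scale. The labels were checked against 6 microglial and 6 sdCAM marker genes. The microglial markers summed to between 16045 and 25063 CPM in MG and to between 1385 and 2696 CPM in sdCAMs, and the sdCAM markers to between 10.6 and 50.6 CPM in MG and to between 9839 and 16226 CPM in sdCAMs. Of other cells, the summed dendritic cell markers reached between 31.4 and 780.1 CPM in sdCAMs against 14.2 to 24.5 CPM in MG. This sum rested mostly on Cd209a in CTL mice, while Xcr1 was at 0 in all sdCAM libraries and Itgax at 0 in all tdT- CTL libraries, against 9.72 to 14.6 CPM in MG CTL. Neuronal markers summed to between 38.5 and 110.0 CPM against 4.53 to 12.4 CPM, astrocyte markers to between 14.2 and 53.7 CPM against 2.71 to 6.93 CPM, and fibroblast markers to between 15.3 and 57.2 CPM against 0.153 to 2.39 CPM. The library tdT- BLZ945 F1 stood apart with 217 CPM of monocyte markers (Ccr2, Plac8 and others), against 99.8 CPM in tdT- BLZ945 M1 and at most 45.7 CPM in the rest, and with 74.2 CPM of Retnlg, while the other 7 neutrophil markers were at 0 there. In MG the neutrophil markers summed to at most 33.3 CPM in CTL, in F3, and 49.4 CPM in BLZ945 mice, in M1. The medians were 1.61 and 0.301 CPM. S100a8, S100a9, Ngp and Camp were present together in both libraries and in MG BLZ945 F3, at 7.93, 8.44, 9.98 and 1.28 CPM in the last. The part of these markers in the results was not tested. The library tdT- BLZ945 F2 held 179 CPM of erythrocyte markers, against at most 19.0 CPM in any other library. The F2 libraries of BLZ945 mice stood apart at several of the 10 genes, and results that rest on them are given with and without them.

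The sequences before the transcription start are shown for the 4 cytokine genes whose levels are compared most closely below, because 3 of them share a motif that the fourth lacks. They are the 250 bases upstream of the start that RefSeq annotates on mouse build GRCm38.p6, written 5′ to 3′ on the strand of the gene. Capitals mark TATAAA, the TATA box, or a match to the NF-kB consensus, the site of the factor that carries TLR and IL-1 signals to many cytokine genes. Il1a lies at chr2:129309973-129310222 (minus strand), Il1b at chr2:129371140-129371389 (minus), Il6 at chr5:30012864-30013113 (plus) and Tnf at chr17:35202008-35202257 (minus).
Il1a: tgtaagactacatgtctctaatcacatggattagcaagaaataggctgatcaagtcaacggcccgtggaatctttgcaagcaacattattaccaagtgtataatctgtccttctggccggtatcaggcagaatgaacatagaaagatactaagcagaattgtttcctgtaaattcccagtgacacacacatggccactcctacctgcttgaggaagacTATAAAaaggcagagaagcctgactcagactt
Il1b: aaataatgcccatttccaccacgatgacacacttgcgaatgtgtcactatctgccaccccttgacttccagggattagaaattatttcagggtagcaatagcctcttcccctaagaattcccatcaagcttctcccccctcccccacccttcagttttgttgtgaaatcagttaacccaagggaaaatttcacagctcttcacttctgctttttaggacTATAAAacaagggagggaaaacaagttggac
Il6: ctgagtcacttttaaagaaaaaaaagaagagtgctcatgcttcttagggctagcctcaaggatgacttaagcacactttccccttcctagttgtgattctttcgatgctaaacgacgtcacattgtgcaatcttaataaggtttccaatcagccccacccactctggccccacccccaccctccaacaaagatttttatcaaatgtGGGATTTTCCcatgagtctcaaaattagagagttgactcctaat
Tnf: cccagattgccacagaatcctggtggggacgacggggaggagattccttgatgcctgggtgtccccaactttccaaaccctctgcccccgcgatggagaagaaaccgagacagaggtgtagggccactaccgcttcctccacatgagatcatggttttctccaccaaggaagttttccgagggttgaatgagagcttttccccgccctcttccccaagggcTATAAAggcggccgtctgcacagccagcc
TATAAA began 32 bases before the start in Il1a, 31 in Il1b and 29 in Tnf, and was not in the window of Il6, whose NF-kB match ended 35 bases before the start. Of the 10 genes, 9 matched an entry, with 12 promoters in all, and Il10 was not among them. On either strand, TATAAA was in 4 of the 12 promoters, against 12.4% of all 32851 RefSeq promoters, and the NF-kB consensus in 2, of Il6 and Nlrp3, against 7.25%. The AP-1 motif TGANTCA was in 3, of Il1a, Il6 and Il1rn, against 6.75%, and TTNNGNAA, a core of C/EBP sites, in 9, against 36.8%, some of them overlapping windows of Il1rn. The motif GAGGAA, bound by PU.1, a factor of all macrophages, overlapped the latter in Il1a and was in 5 of the 12, against 23.3%, and no binding was measured.

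**Figure D1:**
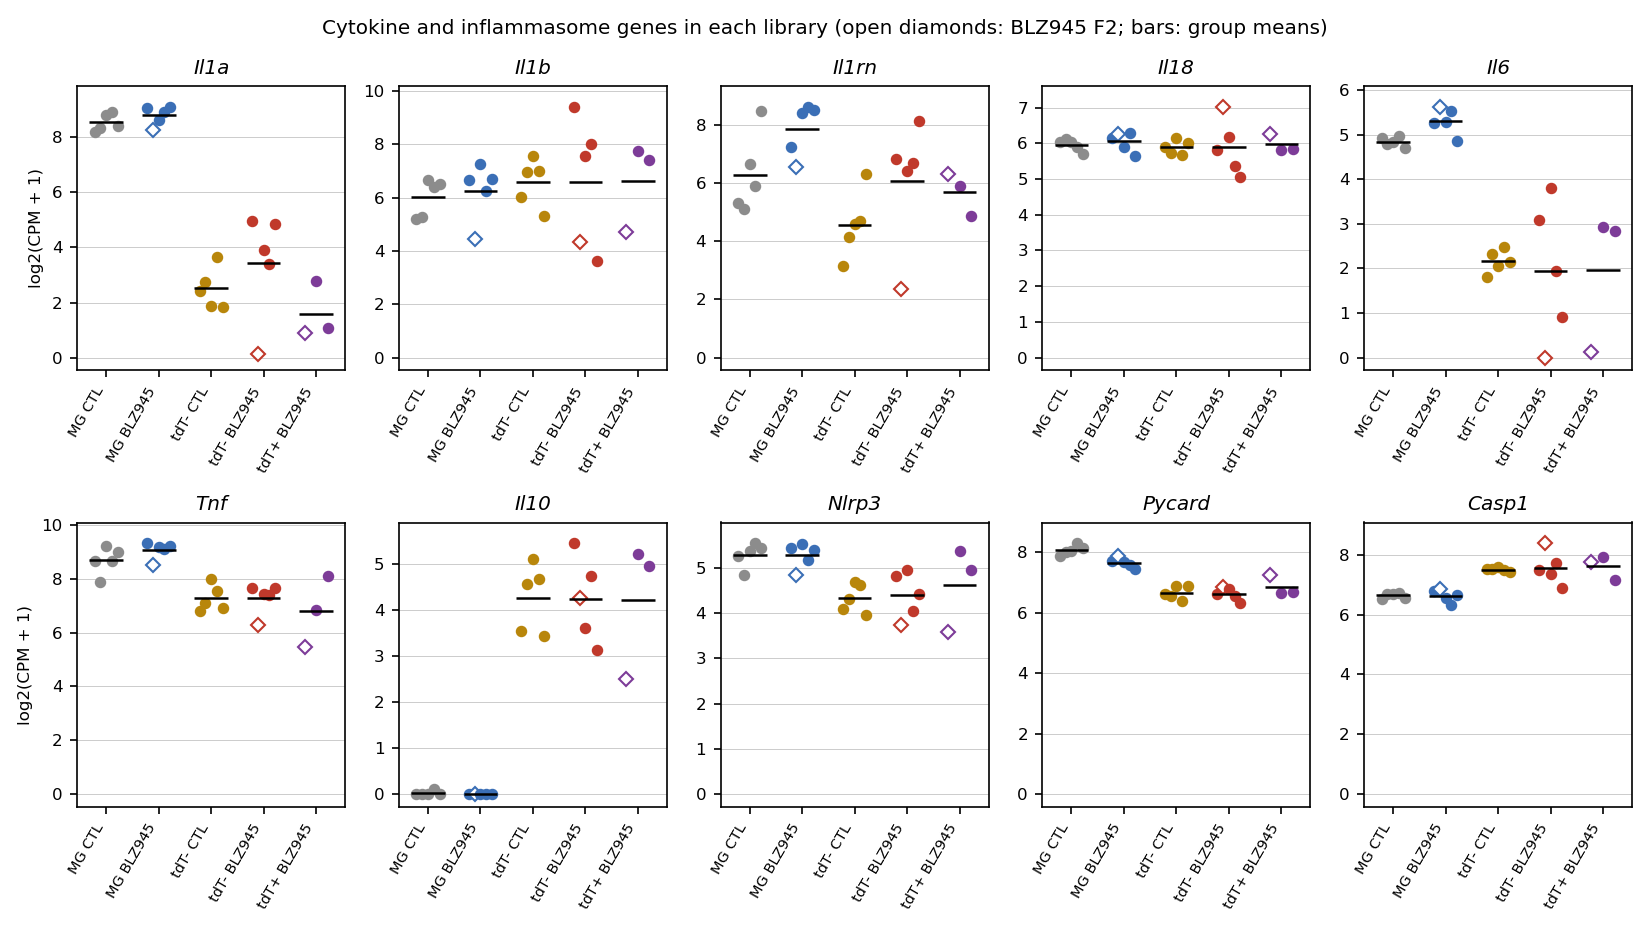
Each of the 10 genes in every library, as log2(CPM + 1), by group (5 libraries each, 3 for tdT+ BLZ945). Points are libraries, bars are group means and open diamonds are the BLZ945 F2 libraries. Il1a, Il6 and Tnf lay higher in MG than in sdCAMs, Il10 lay near 0 in MG, and the 3 IL-1 genes and Il6 spread most among sdCAM libraries of BLZ945 mice.

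The first question was which population held these transcripts 1 day after stroke. In tdT- sdCAMs of CTL mice, 7 of the 10 genes differed from MG of the same animals: Il1a, Il6, Tnf, Pycard and Nlrp3 were lower, and Il10 and Casp1 were higher, against 25.6% of all 12697 genes called, 10.3% lower and 15.3% higher. The same 7 genes were called in the same directions in BLZ945 mice, against 32.4% of all genes, 14.1% lower and 18.3% higher. In tdT+ sdCAMs, 6 genes were called against MG of BLZ945 mice, Nlrp3 being the exception, against 25.2%, 10.6% lower and 14.6% higher. A gene was called at an edgeR adjusted p under 0.05 over all genes tested. The median log2 fold change of the 10 genes was -1.19 in CTL mice, -0.94 in BLZ945 mice and -0.64 for tdT+ sdCAMs, where that of all tested genes was -0.0070, -0.018 and -0.015. All 20 of these calls held in every alternative analysis, and those in BLZ945 mice also without the F2 libraries. The MG BLZ945 libraries serve in both comparisons of BLZ945 mice, so these are not independent. Groups did not overlap for 6 genes in CTL mice, 6 in BLZ945 mice and 7 for tdT+ sdCAMs, against 26.8%, 22% and 33.1% of all genes. In these bulk samples, fewer cells that transcribe a gene and less RNA per cell cannot be told apart.

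Il1a, which encodes IL-1α, an alarm cytokine that is active without caspase-1, showed the largest fall. It stood at 294, 324, 454, 487 and 344 CPM in MG CTL and at 541, 311, 394, 479 and 551 CPM in MG BLZ945. In tdT- sdCAMs it stood at 4.30, 5.79, 2.67, 11.7 and 2.59 CPM in CTL and at 30.3, 0.108, 13.8, 9.44 and 27.8 CPM in BLZ945 mice. The tdT+ libraries held 0.861, 5.94 and 1.10 CPM. The highest sdCAM library thus lay well below the lowest MG library, while the 3 sdCAM groups overlapped one another. Against MG, Il1a fell by a log2 fold change of -6.11 (SE 0.65, adjusted p = 1.97e-07) in tdT- sdCAMs of CTL mice, which is 69.3-fold lower. The log2 fold change was -4.79 (SE 0.60, adjusted p = 2.22e-06) in BLZ945 mice. It was -7.43 (SE 0.93, adjusted p = 1.55e-06) in tdT+ sdCAMs, and -8.85 without the library tdT+ F3.

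Il1b, which encodes the IL-1 that needs caspase-1, did not follow Il1a. MG held 35.7, 37.8, 101, 83.6 and 91.1 CPM in CTL and 101, 20.8, 153, 74.5 and 104 CPM in BLZ945 mice. The tdT- sdCAMs held 64.9, 124, 189, 127 and 38.4 CPM in CTL and 676, 18.9, 189, 255 and 11.5 CPM in BLZ945 mice, and the tdT+ sdCAMs 24.98, 215 and 168 CPM. All 5 groups overlapped, and the tdT- BLZ945 libraries alone spanned the range of all others. Against MG the log2 fold change of Il1b was 0.64 in CTL mice (95% interval -0.86 to 2.14, adjusted p = 0.594) and 1.36 in BLZ945 mice (interval -0.16 to 2.88, adjusted p = 0.165). The latter was 0.40 without tdT- BLZ945 F1 (adjusted p = 0.687) and 0.49 with the animal as a block (adjusted p = 0.620). In tdT+ sdCAMs it was 0.59 (interval -1.13 to 2.31, adjusted p = 0.65). These intervals leave room for a rise of several fold, for no difference and for a fall.

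Il1rn, the receptor antagonist, had lower means in sdCAMs than in MG of the same treatment, but was not called. The values were 38.3, 33.3, 99.9, 57.7 and 349 CPM in MG CTL and 149.6, 92.4, 335, 389.5 and 363 CPM in MG BLZ945. They were 7.83, 16.4, 22.8, 24.7 and 77.2 CPM in tdT- CTL, 113, 4.11, 84.4, 101 and 277 CPM in tdT- BLZ945 and 77.9, 58.9 and 28.2 CPM in tdT+ BLZ945. The log2 fold change against MG was -1.95 (SE 0.77, adjusted p = 0.0701) in CTL mice, -1.19 (SE 0.75, adjusted p = 0.243) in BLZ945 mice and -2.27 (SE 0.92, adjusted p = 0.0721) in tdT+ sdCAMs. The CTL library M2 was the highest of its group in both populations. With the animal as a block, which sets each sdCAM library beside MG of the same animal, Il1rn was called lower in CTL mice (-1.76, adjusted p = 0.0109) and in BLZ945 mice (-1.69, adjusted p = 0.0141). In CTL mice the value ran from -2.68 without tdT- CTL M2 (adjusted p = 0.0214, called) to -0.94 without MG CTL M2 (adjusted p = 0.407). In tdT+ sdCAMs it ran from -2.84 without the F2 libraries (adjusted p = 0.0369, called) to -1.59 with the animal as a block (adjusted p = 0.194), and DESeq2 called it at -2.22 (adjusted p = 0.0466).

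Il18, the second substrate of caspase-1, had like means in the 5 groups, from 58.6 to 66.2 CPM. It ranged over 50.8 to 68.8 CPM in MG CTL, 49.0 to 77.8 CPM in MG BLZ945, 50.4 to 69.8 CPM in tdT- CTL, 32.5 to 129 CPM in tdT- BLZ945 and 55.4 to 75.1 CPM in tdT+ BLZ945. The log2 fold changes against MG were -0.06 (interval -0.60 to 0.48), -0.0044 (-0.54 to 0.53) and -0.09 (-0.69 to 0.51), none of them called. The value in BLZ945 mice turned to 0.044 under relative log expression scaling.

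Il6 was low in every population and lower in sdCAMs. It stood at 29.6, 26.7, 27.5, 30.4 and 25.2 CPM in MG CTL and 37.4, 48.4, 38.2, 45.4 and 28.0 CPM in MG BLZ945. It stood at 2.53, 4.02, 3.16, 4.58 and 3.40 CPM in tdT- CTL, 7.503, 0, 12.9, 2.82 and 0.891 CPM in tdT- BLZ945 and 0.0957, 6.63 and 6.12 CPM in tdT+ BLZ945. No sdCAM library reached an MG library, and 2 of the 3 F2 libraries of BLZ945 mice were at or under the level of 3 counts. The log2 fold change against MG was -2.97 (SE 0.64, adjusted p = 0.00134) in CTL mice, -3.01 (SE 0.64, adjusted p = 0.00103) in BLZ945 mice and -3.20 (SE 0.94, adjusted p = 0.0142) in tdT+ sdCAMs. In BLZ945 mice it was -3.84 with the animal as a block and -3.80 without tdT- BLZ945 F3, and in tdT+ sdCAMs it was -2.56 without the F2 libraries.

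Tnf, which had the highest mean CPM of the 10 genes in both MG groups, fell less. It stood at 404, 237, 603, 405 and 506 CPM in MG CTL and 638, 369, 576, 545 and 597 CPM in MG BLZ945. It stood at 111, 138, 256, 184 and 119 CPM in tdT- CTL, 202, 76.8, 175, 169 and 201 CPM in tdT- BLZ945 and 42.8, 115 and 277 CPM in tdT+ BLZ945. In CTL mice tdT- F3 lay above MG F2, and the other libraries did not cross, while in BLZ945 mice neither sdCAM group overlapped MG. Tnf was 2.66-fold lower in CTL mice (log2 fold change -1.41, SE 0.27, adjusted p = 0.000402), 3.28-fold lower in BLZ945 mice (-1.72, SE 0.27, adjusted p = 4.56e-05) and 3.77-fold lower in tdT+ sdCAMs (-1.91, SE 0.43, adjusted p = 0.00201). Without tdT+ M2, its highest tdT+ library, the last value was -2.79.

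Il10, the anti-inflammatory cytokine of the group, had the opposite pattern. Of the 10 MG libraries, 9 had 0 counts and MG CTL M1 had 1. The sdCAMs held 10.6, 22.9, 33.3, 24.5 and 9.80 CPM in tdT- CTL, 42.7, 18.2, 11.1, 25.6 and 7.79 CPM in tdT- BLZ945 and 4.69, 36.2 and 30.1 CPM in tdT+ BLZ945. All sdCAM libraries lay above all MG libraries. Taking 3 counts per library as the floor in MG, Il10 was at least 78.9-fold higher in tdT- sdCAMs of CTL mice (adjusted p = 1.04e-07), at least 79.4-fold higher in those of BLZ945 mice (adjusted p = 6.53e-08) and at least 89.1-fold higher in tdT+ sdCAMs (adjusted p = 1.15e-07).

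Among the inflammasome genes, the sensor and the adaptor were lower and the protease was higher in sdCAMs. Nlrp3 stood at 37.2, 27.5, 40.6, 45.4 and 42.1 CPM in MG CTL, 42.6, 27.7, 44.9, 34.7 and 41.3 CPM in MG BLZ945 and 16.1, 18.8, 24.8, 23.5 and 14.6 CPM in tdT- CTL. It stood at 27.1, 12.3, 29.7, 15.4 and 20.3 CPM in tdT- BLZ945 and 10.9, 40.1 and 29.9 CPM in tdT+ BLZ945. Its log2 fold change against MG was -0.97 (SE 0.24, adjusted p = 0.00477) in CTL mice and -0.85 (SE 0.24, adjusted p = 0.0102) in BLZ945 mice. In tdT+ sdCAMs, where F2 was low and F3 and M2 lay within the range of MG, it was -0.50 (interval -1.21 to 0.20, adjusted p = 0.299). Pycard stood at 233, 259, 261, 312 and 281 CPM in MG CTL and 207, 233, 203, 189.5 and 174 CPM in MG BLZ945. In sdCAMs it stood at 96.7, 92.7, 118, 83.5 and 116 CPM in tdT- CTL, 97.6, 115, 109.6, 93.2 and 78.2 CPM in tdT- BLZ945 and 151, 101 and 101 CPM in tdT+ BLZ945. No sdCAM library overlapped MG, and Pycard had the smallest standard errors of the called genes. It was 2.64-fold lower in CTL mice (log2 fold change -1.40, SE 0.13, adjusted p = 2.63e-08), 2.02-fold lower in BLZ945 mice (-1.02, SE 0.13, adjusted p = 2.66e-06) and 1.71-fold lower in tdT+ sdCAMs (-0.77, SE 0.17, adjusted p = 0.00126).

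Casp1, the protease that these proteins activate, stood at 90.2, 102, 103, 105 and 94.0 CPM in MG CTL and 109, 114, 92.5, 79.0 and 99.3 CPM in MG BLZ945. It stood at 182, 182, 193, 178 and 169.9 CPM in tdT- CTL, 179, 332, 161, 209.5 and 118 CPM in tdT- BLZ945 and 216, 239.9 and 142 CPM in tdT+ BLZ945. Every sdCAM library lay above every MG library of its treatment. Casp1 was 1.84-fold higher in CTL mice (log2 fold change 0.88, SE 0.18, adjusted p = 0.000956), 2.04-fold higher in BLZ945 mice (1.03, SE 0.19, adjusted p = 0.000182) and 2.02-fold higher in tdT+ sdCAMs (1.01, SE 0.22, adjusted p = 0.00113). The sdCAM groups overlapped one another at Nlrp3, Pycard and Casp1.

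Markers of other cells and genes of early activation moved with this comparison. The summed neuronal, astrocyte and fibroblast markers given above were higher in sdCAMs, as were Cd209a and Zbtb46 of the dendritic cell list, whereas Itgax was at 0 in tdT- CTL and Xcr1 at or near 0 in both populations. T and NK cell markers stayed at or under 9.65 CPM in all libraries. Of 17 immediate early genes, which respond within minutes to injury and to cell dissociation, 7 were called higher and 0 lower in tdT- sdCAMs than in MG of CTL mice, against 15.3% and 10.3% of all genes. In BLZ945 mice 6 were higher and 2 lower, against 18.3% and 14.1%, and in tdT+ sdCAMs 5 were higher and 1 lower, against 14.6% and 10.6%. In tdT- sdCAMs of CTL mice 5 of the 7 calls held in every alternative analysis, with Ier3 and Nr4a1 lost in at least 1. In BLZ945 mice 6 of the 8 held, with Ier3 and Junb lost in at least 1. In tdT+ sdCAMs 2 of the 6 held. There Fos was called in 11 of 13 alternatives, Dusp1 in 12, Egr1 in 7 and Klf2 in 6. Fos and Dusp1 were lost without tdT+ F3, and Fos also without tdT+ M2. Klf2 fell from 1.08 to 0.22 without tdT+ M2, and Egr1, the lower one, went from -0.94 to -0.54 without tdT+ F2. Fos had a log2 fold change of 1.77 (SE 0.29) in CTL and 1.19 (SE 0.28) in BLZ945 mice, and Egr1 of -0.85 (SE 0.22) in BLZ945 mice. Summed, they lay between 17639 and 28034 CPM in MG and between 10049 and 39292 CPM in sdCAMs, lowest in the library tdT+ F2. The part of these genes in the results was not tested.

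**Figure D2:**
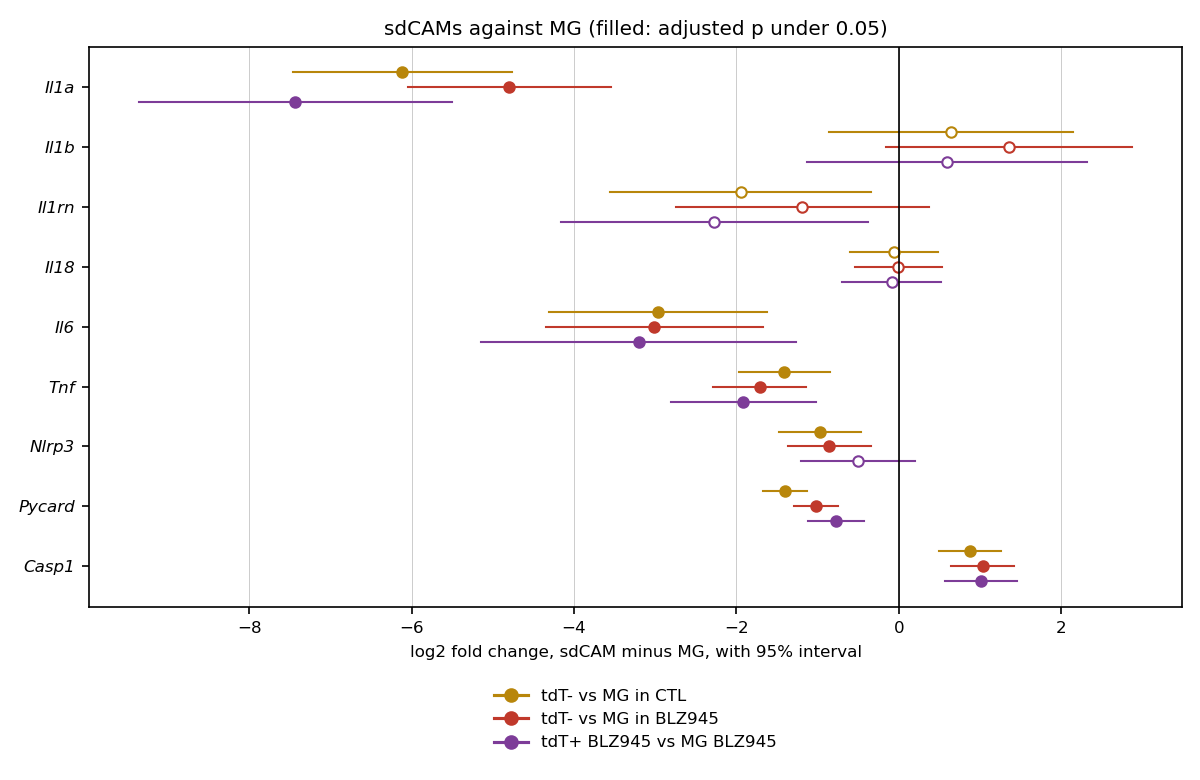
Log2 fold changes of 9 of the 10 genes between sdCAMs and MG, as points with 95% intervals, for tdT- sdCAMs of CTL mice, tdT- sdCAMs of BLZ945 mice and tdT+ sdCAMs of BLZ945 mice. Filled points have an edgeR adjusted p under 0.05, and Il10 is left out because MG libraries had at most 1 count. Il1a, Il6, Tnf and Pycard lay below 0 and Casp1 above 0 in the 3 comparisons.

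The same comparison was made for 79 further genes of these pathways, in 5 lists. In tdT- sdCAMs 23 of 64 tested genes were called in CTL mice and 23 of 64 in BLZ945 mice, and in tdT+ sdCAMs 19 of 69, against 25.6%, 32.4% and 25.2% of all genes. Of these calls 18, 18 and 10 held in every alternative analysis, and no value changed sign, so the counts below include 5, 5 and 9 calls that were lost in at least 1. The lists did not move one way. Among inflammasome and pyroptosis genes 5 were called higher and 5 lower of 19 tested in CTL mice, 4 higher and 3 lower in BLZ945 mice, and 3 higher and 5 lower of 20 in tdT+ sdCAMs. Among IL-6 and IL-10 receptor genes 1 was higher and 4 were lower of 13 tested in each treatment, and 1 was higher and 3 were lower of 15 in tdT+ sdCAMs. IL-1 receptor signalling had 1 higher and 2 lower of 11 in CTL, 1 higher and 4 lower of 11 in BLZ945 mice, and 2 lower of 11 in tdT+ sdCAMs. The TNF list had 2 higher and 1 lower of 14 in CTL, 1 higher and 3 lower of 14 in BLZ945 mice, and 2 and 2 of 14 in tdT+ sdCAMs. The IL-1 family list had 1 higher and 1 lower of 7 in each treatment and 1 higher of 9 in tdT+ sdCAMs.

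Several receptor and inhibitor genes differed between sdCAMs and MG. Il18bp, whose protein captures free IL-18, stood at 5.78, 3.50, 3.25, 5.12 and 5.74 CPM in MG CTL and 7.13, 5.95, 8.53, 12.9 and 8.71 CPM in MG BLZ945. It stood at 26.9, 39.3, 47.0, 53.9 and 42.3 CPM in tdT- CTL, 20.4, 58.4, 23.7, 63.3 and 14.3 CPM in tdT- BLZ945 and 61.3, 56.6 and 46.8 CPM in tdT+ BLZ945, above every MG library of the same treatment. Its log2 fold changes against MG were 3.17 (SE 0.39, adjusted p = 1.61e-06), 2.07 (SE 0.37, adjusted p = 0.000177) and 2.66 (SE 0.39, adjusted p = 1.35e-05), where Il18 itself was not called. Il10ra, the ligand-binding chain of the IL-10 receptor, was lower in sdCAMs, with 443 ± 73.5 CPM in MG CTL against 209 ± 46.5 CPM in tdT- CTL (SD, n = 5 each). Its log2 fold changes were -1.08 (adjusted p = 0.000117), -1.49 (adjusted p = 2.10e-06) and -1.26 (adjusted p = 0.000179), the reverse of its ligand. Il6st, which encodes gp130, the signalling chain of IL-6 family receptors, was lower too, with log2 fold changes of -1.31, -1.29 and -2.40 (adjusted p = 0.00011, 0.000116 and 4.80e-07). Lifr, a partner of gp130 for leukaemia inhibitory factor, was higher in sdCAMs, at 1.47, 1.24 and 1.47 on the log2 scale (adjusted p = 6.54e-08, 8.16e-07 and 2.71e-07). Il6ra, the IL-6 binding chain, ranged over 79.4 to 162 CPM in MG CTL and 90.2 to 147 CPM in tdT- CTL and was not called (log2 fold change -0.14, adjusted p = 0.641). Tnfrsf1a, the widely expressed TNF receptor, was higher in sdCAMs, by log2 values of 0.73 (adjusted p = 9.21e-05) in tdT- of CTL mice, 0.52 (adjusted p = 0.00244) in tdT- of BLZ945 mice and 0.54 (adjusted p = 0.00668, 0.44 and not called without tdT+ F2) in tdT+, while Tnf was lower. Tnfrsf1b, the second TNF receptor, was lower in BLZ945 mice (-0.77, adjusted p = 0.0016) and at -0.45 (adjusted p = 0.0635) in CTL mice. Il1r1, the receptor of both forms of IL-1, reached at most 6.05 CPM in any library, and Il18r1, the IL-18 receptor, at most 0.342 CPM. Irak2, a kinase under the IL-1 receptor, was lower, with log2 fold changes of -0.87, -1.40 and -1.62 (adjusted p = 0.00819, 0.000104 and 0.00195).

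The sensors that feed caspase-1 differed between the populations as well. Nlrc4, the adaptor of the NAIP sensors of bacterial proteins, stood at 0 to 0.826 CPM in MG CTL and 0 to 1.00 CPM in MG BLZ945, with at most 10 counts in a library. It stood at 33.4, 22.5, 22.5, 21.8 and 24.5 CPM in tdT- CTL, 23.6, 11.4, 28.0, 13.8 and 5.34 CPM in tdT- BLZ945 and 19.4, 22.2 and 3.71 CPM in tdT+ BLZ945. Its fitted log2 fold changes were 6.83 (SE 0.90, adjusted p = 4.24e-06), 5.22 (SE 0.82, adjusted p = 4.10e-05) and 5.08 (SE 0.88, adjusted p = 0.000123), and the first was 7.47 with the animal as a block and 8.40 without MG CTL F1. Naip2, a sensor that binds NLRC4, went the other way, with log2 fold changes of -1.59 (adjusted p = 0.0128), -1.82 (adjusted p = 0.00452) and, in tdT+ sdCAMs, -1.92 (adjusted p = 0.0212, called in 10 of 13 alternatives), though it belongs to a family of similar genes whose reads can be split. Aim2, a sensor of DNA in the cytosol, was lower, with log2 fold changes of -1.15, -0.80 and -1.57 (adjusted p = 0.000484, 0.00851 and 0.000681). Ninj1, needed for rupture of the membrane at the end of pyroptosis, had 199.8 ± 44.9 CPM in MG CTL against 719.8 ± 112 CPM in tdT- CTL (SD, n = 5 each) and was higher, with log2 fold changes of 1.86, 2.52 and 2.44 (adjusted p = 2.61e-07, 3.63e-09 and 4.12e-09). Gsdmd, the pore protein that caspase-1 cleaves, ranged over 116 to 196 CPM in MG CTL and 86.7 to 138 CPM in tdT- CTL (log2 fold change -0.28, adjusted p = 0.189). It was called lower in tdT+ sdCAMs (-0.50, adjusted p = 0.037), a call that held in 3 of 13 alternative analyses, with values from -0.53 to -0.45. Casp4, the caspase of the non-canonical pathway, ranged over 25.5 to 43.4 CPM and 14.0 to 40.2 CPM in the same groups (-0.35, adjusted p = 0.474).

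**Figure D3:**
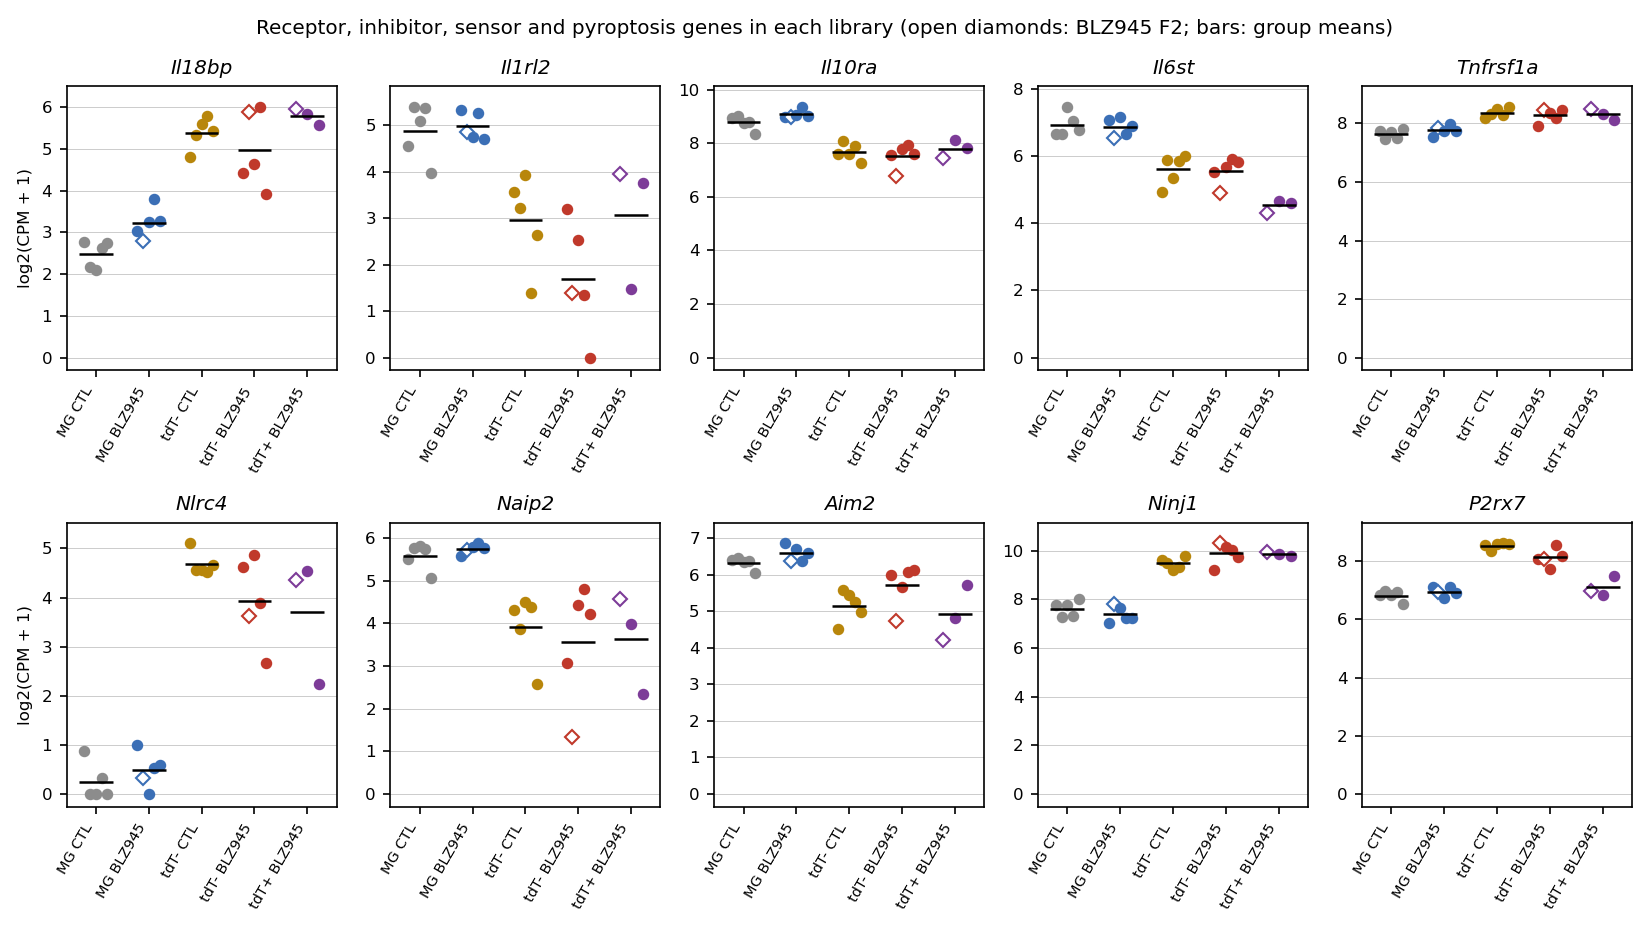
Genes for 10 receptors, inhibitors, sensors and executors of the same pathways in every library, as log2(CPM + 1), by group (5 libraries each, 3 for tdT+ BLZ945). Points are libraries, bars are group means and open diamonds are the BLZ945 F2 libraries. Il18bp, Nlrc4 and Ninj1 lay higher in sdCAMs, Il10ra, Il6st and Aim2 lay lower, and P2rx7 was higher in tdT- sdCAMs than in MG or tdT+ sdCAMs.

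The next question was whether the genes differed in MG that had repopulated after BLZ945. None of the 9 genes tested was called by edgeR, against 0.408% of all 11264 genes, with 3 at an unadjusted p under 0.05, against 13.2% of all genes, and 1, Pycard, called by DESeq2, against 1.28%. At each of the 9 genes the groups overlapped, where 3.03% of all genes had groups that did not. Pycard had a log2 fold change of -0.43 (interval -0.65 to -0.21, adjusted p = 0.0842), with MG BLZ945 F2 alone above the lowest MG CTL library. It was called without that library (-0.49, adjusted p = 0.0473). Il6 was at 0.49 (interval 0.18 to 0.80, adjusted p = 0.168), with 4 of the 5 BLZ945 libraries above all CTL libraries. Il1rn was at 1.18 (interval 0.0079 to 2.36, adjusted p = 0.375), and without MG CTL M2, the one high CTL library, it was called higher at 2.21 (adjusted p = 0.0170). The other 6 values lay between -0.024 for Nlrp3 and 0.36 for Il1b, with 0.25 for Il1a, 0.33 for Tnf, 0.098 for Il18 and -0.015 for Casp1. Il10 was not tested, at 0 or 1 count. Of 62 pathway genes, 0 were called by edgeR, with 11 at an unadjusted p under 0.05 and 1 called by DESeq2, beside the same shares of all genes.

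In tdT- sdCAMs, BLZ945 and CTL mice were compared across 10 libraries. None of the 10 genes was called by edgeR or DESeq2, against 0% of all 13076 genes by edgeR, and 1, Il1rn, had an unadjusted p under 0.05, against 5.33% of all genes. The groups overlapped at all 10 genes, where 1.84% of all genes had groups that did not. Il1rn lay higher in BLZ945 mice in 4 of 5 libraries, above all CTL libraries, and the library F2 lay below them all. Its log2 fold change by edgeR was 1.99 (SE 0.73, interval 0.43 to 3.54, adjusted p = 0.748), and 2.28 without the F2 libraries. Over the alternative analyses it ran from 1.36 to 2.71. Il1a was at 1.61 (interval -0.33 to 3.54) and Il1b at 1.09 (interval -0.67 to 2.85). Without tdT- BLZ945 F1, the library with the most monocyte markers and the most Il1b, the value of Il1b was 0.14. The other 7 genes lay between -0.029 for Pycard and 0.46 for Il6, with 0.041 for Tnf, 0.067 for Il10, 0.11 for Nlrp3, 0.15 for Casp1 and 0.16 for Il18. Of 66 pathway genes, 0 were called by edgeR, with 4 at an unadjusted p under 0.05, against 5.33% of all genes, and 1 called by DESeq2, against 0.346%. Markers of other cells moved with this comparison. The dendritic cell sum lay between 219.6 and 780.1 CPM in CTL and between 31.4 and 209 CPM in BLZ945 mice. It rested mostly on Cd209a, at 206 to 754 CPM in CTL and 19.1 to 140 CPM in BLZ945 mice. Flt3, Itgax and Ccr7 of the same list were highest in BLZ945 F1, at 13.9, 9.75 and 45.6 CPM, and Xcr1 was at 0 in both groups. Cd79b, of the B cell list, lay between 24.6 and 38.1 CPM in CTL and between 0 and 6.27 CPM in BLZ945 mice. In MG, Cd79b likewise lay between 28.8 and 48.4 CPM in CTL and between 3.01 and 9.64 CPM in BLZ945 mice, while the sums of the B cell list overlapped in both populations. Their part in the results was not tested. The intervals are wide, and the tdT- BLZ945 libraries spread from 11.5 to 676 CPM at Il1b and from 0.108 to 30.3 CPM at Il1a.

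Cells with and without the Ccr2 mark were compared within BLZ945 mice, which sets sdCAMs that arose from Ccr2-positive cells beside the rest. None of the 10 genes was called by edgeR or DESeq2, against 0.206% of all genes by edgeR, and 1, Il1a, had an unadjusted p under 0.05, against 6.91% of all genes. The groups overlapped at all 10 genes, where 3.41% of all genes had groups that did not. By edgeR, the log2 fold change of Il1a was -2.64 (SE 1.16, interval -5.11 to -0.18, adjusted p = 0.687), and -4.05 without tdT+ F3. In the animals and pools with both libraries, tdT+ exceeded tdT- in F2 and lay below it in F3 and M2. Il1b was at -0.77 (interval -2.83 to 1.30) and Il1rn at -1.11 (interval -2.91 to 0.70). Within the 3 pairs, Il1b was higher in tdT+ in all 3, and Il1rn and Il6 in 1 and 2 of them. At Il6 the F2 pair held 1 count in tdT+ and 0 in tdT-, under the level of 3 counts, so its direction was not measured. With the animal or pool as a block, which changed the sign for Il1b, Il6 and Casp1, the values were 1.33 for Il1b, 1.19 for Il6, -0.21 for Il1rn and -1.304 for Il1a, none of them called (adjusted p = 1 for each). Without tdT- BLZ945 F1 the value of Il1b was 0.19. The other 7 genes lay between -0.20 for Tnf and 0.35 for Nlrp3, with -0.18 for Il6, -0.085 for Il18, -0.018 for Casp1, 0.16 for Il10 and 0.24 for Pycard. Against tdT- sdCAMs of CTL mice, the tdT+ sdCAMs showed 0 of 10 genes called by edgeR or DESeq2, against 0.283% and 1.08% of all genes. By edgeR 0 of the 10 had an unadjusted p under 0.05, against 7.44% of all genes. Groups overlapped at all 10, where 8.26% of all genes had groups that did not. The values there were -1.04 for Il1a (-2.46 without tdT+ F3 and -0.54 without tdT- CTL M1), 0.33 for Il1b, 0.88 for Il1rn, 0.28 for Il6, -0.16 for Tnf, 0.23 for Il10, 0.077 for Il18, 0.46 for Nlrp3, 0.13 for Casp1 and 0.21 for Pycard. Both comparisons use the same 3 tdT+ libraries.

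Of 66 pathway genes, edgeR called 1 in both comparisons, against 0.206% and 0.283% of all genes, and DESeq2 called 3 in each, against 0.896% and 1.08%. The edgeR call was P2rx7, which encodes the ATP-gated channel that triggers NLRP3 when cells release ATP. It stood at 371, 328, 379.9, 389 and 381 CPM in tdT- CTL, 268, 270.3, 212, 379 and 288 CPM in tdT- BLZ945 and 125, 114 and 177 CPM in tdT+ BLZ945. MG held 90.7 to 125 CPM in CTL and 105 to 136 CPM in BLZ945 mice. All tdT+ libraries lay below all tdT- libraries, and 2 of the 3 lay within the range of MG BLZ945. Markers of other cells moved with these comparisons without overlap: the B cell sum lay between 256.6 and 395.6 CPM in tdT+ and between 174 and 252.8 CPM in tdT- BLZ945, and Cd79b between 11.3 and 50.3 CPM and between 0 and 6.27 CPM. The dendritic cell sum lay between 34.8 and 88.3 CPM in tdT+, below the tdT- CTL range given above. Cd209a, of the same list, lay between 11.9 and 69.7 CPM in tdT+ and between 206 and 754 CPM in tdT- CTL. Their part in the results was not tested. Against tdT- sdCAMs of CTL mice the log2 fold change was -1.42 (SE 0.20, adjusted p = 0.00289), called in all 14 alternative analyses. Against those of BLZ945 mice it was -1.05 (SE 0.20, adjusted p = 0.0409), and the call was lost with the animal as a block (-0.92, adjusted p = 0.387) and without the F2 libraries (-0.98, adjusted p = 0.244). It was also lost without tdT- BLZ945 F1, F2, M1 or M2 and without tdT+ F2 or F3, with adjusted p from 0.0505 to 0.301, while the log2 fold change there lay between -1.06 and -0.91. P2rx7 was higher in tdT- sdCAMs than in MG, by 1.72 (adjusted p = 1.77e-09) in CTL and 1.21 (adjusted p = 3.40e-07) in BLZ945 mice, and at 0.17 (adjusted p = 0.492) in tdT+ sdCAMs.

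**Figure D4:**
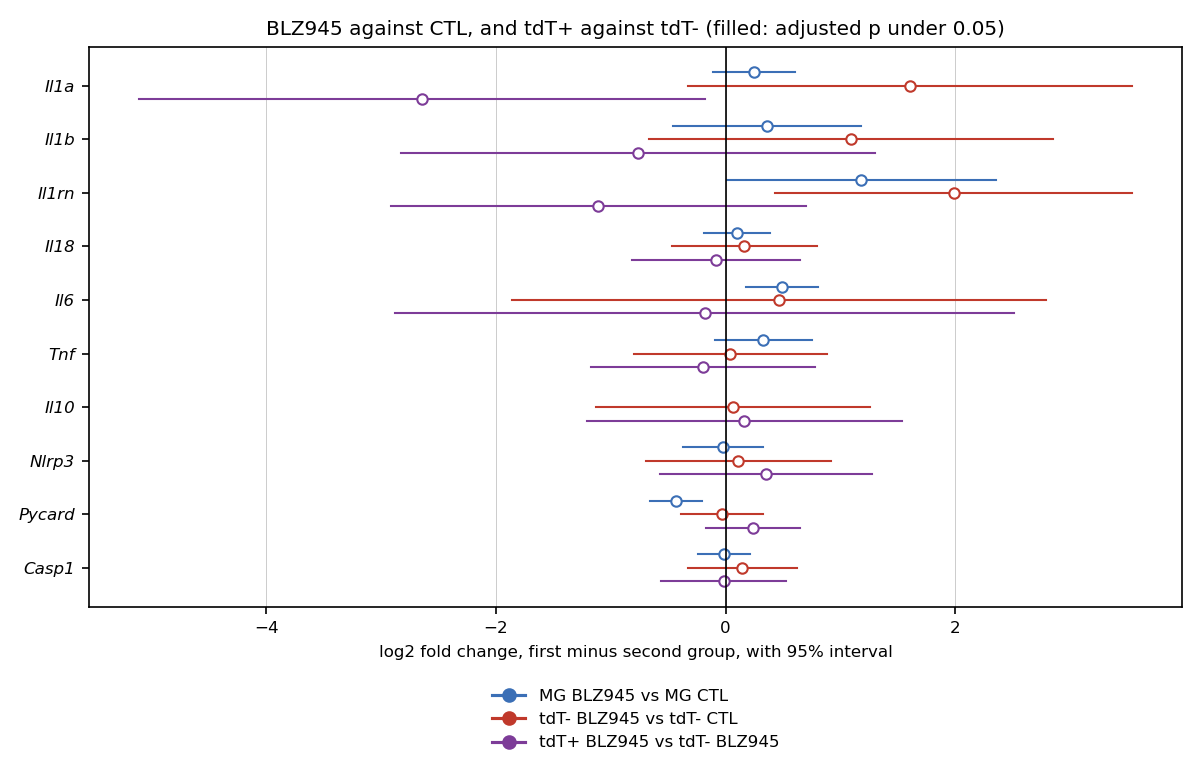
Log2 fold changes of the 10 genes between BLZ945 and CTL in MG, between BLZ945 and CTL in tdT- sdCAMs, and, within BLZ945 mice, between sdCAMs with and without tdT, as points with 95% intervals. Open points have an edgeR adjusted p of 0.05 or more, which holds for all of them, and Il10 was not tested in MG. Intervals are narrower in MG than in sdCAMs, and widest for Il1a, Il1b, Il1rn and Il6 in sdCAMs.

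Whether BLZ945 acted differently in tdT- sdCAMs and MG was tested as the difference of both effects. None of the 10 genes was called by edgeR or DESeq2, against 0.0394% and 0.477% of all genes. By edgeR 1, Pycard, had an unadjusted p under 0.05, against 8.69% of all genes. Its difference by edgeR was 0.38 (interval 0.0078 to 0.76, adjusted p = 0.559). The difference was 1.32 (interval -0.25 to 2.89) for Il1a, 0.72 (interval -1.40 to 2.83) for Il1b and 0.76 (interval -1.43 to 2.95) for Il1rn. For Il6 it was -0.043, for Tnf -0.31, for Il18 0.055, for Nlrp3 0.12 and for Casp1 0.15. No value is given for Il10, which had no measurable level in MG.

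Because MG and tdT- sdCAMs came from the same 10 animals or pools, the deviation of each library from its group mean was compared between the populations for 9 genes, without Il10. Il1rn had the highest correlation (Pearson r = 0.741, permutation p = 0.0148, adjusted p = 0.0666 over 9 genes; Spearman rho = 0.806, permutation p = 0.00682, adjusted p = 0.0614). Without CTL M2 and BLZ945 F2, the 2 farthest from the median in MG, r was 0.658. Il1a followed (r = 0.712, permutation p = 0.0121, adjusted p = 0.0666; rho = 0.576, permutation p = 0.0877, adjusted p = 0.197), and without CTL M1 and BLZ945 F2 r was 0.414. No gene passed 0.05 after adjustment, and with 5 animals or pools per treatment no value is given within a treatment. The median r over 13718 genes was 0.138.

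**Figure D5:**
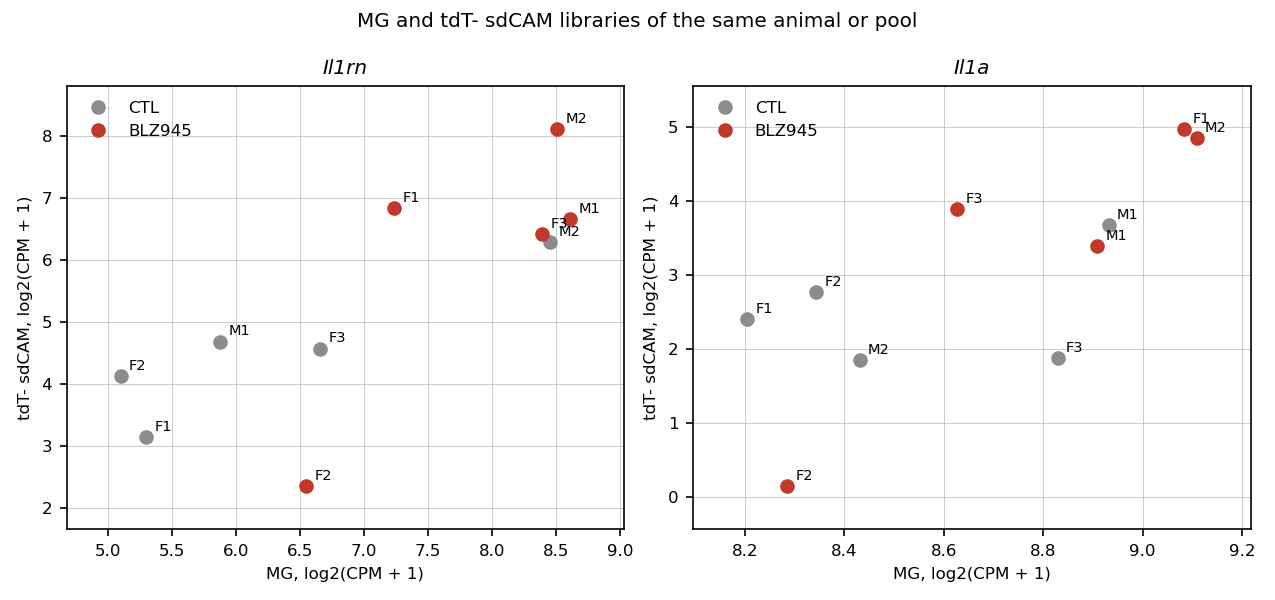
Il1rn and Il1a in MG (horizontal) and tdT- sdCAMs (vertical) of the same animal or pool, as log2(CPM + 1), for 5 CTL and 5 BLZ945 animals or pools. Each point is an animal or pool with its label. CTL M2 was the highest CTL animal in both populations at Il1rn, and BLZ945 F2 was the lowest in sdCAMs at both genes.

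Levels of different genes were compared per kilobase of annotated exon, on the CPM scale. The length joined all annotated exons of a gene, 3800 bases for Pycard and 5535 for Il1rn, and can exceed that of the transcript present. The orders below hold for these lengths only. In MG CTL, Tnf (263.01 CPM per kb) and Il1a (193) led, followed by Pycard (70.8), Casp1 (66.0), Il18 (59.6) and Il1b (36.6), then by Il1rn (20.9), Il6 (11.5) and Nlrp3 (9.50). In tdT- CTL, Casp1 (121 CPM per kb) and Tnf (98.6) led, followed by Il1b and Il18 (both 56.9), Pycard (26.7) and Il10 (15.4). Il1rn (5.39 CPM per kb), Nlrp3 (4.82), Il1a (2.74) and Il6 (1.456) came last. Il1a was thus the second of the 10 in MG CTL and the ninth in tdT- CTL by mean level per kilobase. Most neighbours in these orders had ranges that overlapped. In MG CTL the ranges parted between Il1a and Pycard and between Nlrp3 and Il10, and in tdT- CTL between Il18 and Pycard.

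Genes with the most similar course over the 23 libraries were sought among 8964 others, by the root mean square difference of log2(CPM + 1) after centring. Pycard had the closest match, Mpc1 at 0.172 and Trem2, a microglial receptor gene, at 0.219. Casp1 lay nearest to Smim14 (0.227) and Gabarap (0.230), Il18 to Pcbp2 (0.229), Nlrp3 to Btg1 (0.298) and Dnajc18 (0.316), and Tnf to Apbb1ip (0.404) and Ier5 (0.468). Il6 lay nearest to Mtcl2 (0.564) and Apbb2 (0.629), Il10 to Cmah (0.565) and Itga4 (0.607), and Il1a to Lrrc3 (0.780) and St3gal5 (1.00). For Il1b the nearest were Tfb1m (0.862) and Egr2 (0.971), and for Il1rn Polr1e (1.05) and Kif2c (1.06).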

How the data were processed

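RNA from sorted macrophages of 23 samples was sequenced. The authors deposited raw read counts per gene, made, per the labels, with bcl2fastq 2.20, STAR 2.7.11a and featureCounts 2.0.6, and processed them further with DESeq2 1.46.0. The genome build of the table is not given without ambiguity in the sources used here, so no coordinates of the table are printed. Whether counting used strand is not stated, so reads of overlapping genes may be shared.

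The 10 genes, the marker and pathway lists and the tests were chosen with earlier results of these data known. Members are described in every comparison. Pathway genes are named where called, at most the 6 with the largest absolute log2 fold change per list and comparison, and a fixed set of receptors and inflammasome genes at any value. Tests on the deposited counts used R 4.3.3 and edgeR 4.0.16, with DESeq2 1.42.0 as an alternative: filterByExpr by group, TMM factors, quasi-likelihood F test, Benjamini-Hochberg adjustment over all genes tested, called under 0.05. There were 8 comparisons in 4 models: MG (10 libraries), sdCAMs (13), MG with tdT- sdCAMs (20) and all 23. CPM used the TMM-scaled library total, and a pseudocount of 1 CPM on the log2 scale in plots, correlations and the search for similar genes. Exon lengths came from Gencode M21 and promoters from RefSeq on GRCm38.p6, neither known to be the authors' annotation. Motifs were searched on both strands. The scripts were tested on simulated data. Library totals ranged from 9433960 to 13276081, and floors of 3 counts cover counting error only.

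Same-named libraries of a treatment came from the same animal or pool. Their deviations from group means correlated at a mean r of 0.110 (MG with tdT-, CTL), 0.0815 (MG with tdT-, BLZ945), 0.0689 (tdT- with tdT+) and 0.131 (MG with tdT+), and the pairing was taken from the methods and library names. The names of the BLZ945 libraries F2 and M1 hold the same animal number, which could not be resolved, so they may not be fully separate. No 2 libraries of a group differed by as little as sampling noise (chi-square per gene of the closest pair from 16.0 to 55.1). Pooling of animals went with treatment, and p-values measure the spread between these libraries.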

Additional observations from a re-analysis of the deposited data

Results flagged for a closer look

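In the groups of 5 libraries, 38 sets of values of the 10 genes were tested for a library far from its group by Dixon's ratio, and 3 were marked, where chance marks about 1 in 20. Il1rn was marked in both populations of the CTL animal M2, at 349 CPM in MG, where the other 4 libraries lay between 33.3 and 99.9 CPM, and at 77.2 CPM in tdT- sdCAMs, where the others lay between 7.83 and 24.7 CPM. Tnf was marked in the library tdT- BLZ945 F2, at 76.8 CPM, where the others lay between 169 and 202 CPM. By edgeR, the effects of BLZ945 in tdT- sdCAMs and MG differed past the threshold at 0 of the 10 genes, against 0.0394% of all genes, and by DESeq2 at 0, against 0.477%. Among the 10, 1, Pycard, had an unadjusted p under 0.05 by edgeR, against 8.69% of all genes.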

How the results depend on the processing

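All 20 called values of the 10 genes kept their direction and their call in every alternative run. Of the 59 values not called, 31 changed sign in at least 1 alternative and 5 gained a call, so their directions are not established, and the cause was not tested. In MG, BLZ945 against CTL, 1 of the genes was called, where edgeR called 0, with no filter on low counts, with DESeq2, with a replicate block and without the F2 libraries (added after seeing the data), and between 0 and 1 with each library left out. Labels are shared by different animals in both BLZ945 against CTL comparisons, so the replicate block there pairs numbers only; at Il1rn in MG it gave 1.59 and a call.

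Log2 fold changes that turned sign were as follows. In MG, BLZ945 against CTL, Nlrp3 was 0.072 without the F2 libraries, and with each library left out Casp1 ranged from -0.071 to 0.055 and Nlrp3 from -0.13 to 0.072. In tdT- sdCAMs, BLZ945 against CTL, the block gave Il10 -0.046, Il1b -0.060, Il6 -0.75 and Tnf -0.065, and leaving out F2 gave Casp1 -0.12 and Il18 -0.23. With each library left out, Casp1 ranged from -0.12 to 0.28, Il10 from -0.36 to 0.32, Il18 from -0.23 to 0.33, Il6 from -0.32 to 0.77, Nlrp3 from -0.048 to 0.24, Pycard from -0.10 to 0.040 and Tnf from -0.067 to 0.27. For tdT+ against tdT- in BLZ945 mice, the block gave Casp1 0.059, Il1b 1.33 and Il6 1.19, and leaving out F2 gave Casp1 0.19, Il18 0.16, Il6 0.073 and Tnf 0.063. With each library left out, Casp1 ranged from -0.16 to 0.25, Il10 from -0.28 to 0.65, Il18 from -0.25 to 0.31, Il1b from -1.26 to 0.19, Il6 from -0.64 to 0.60, Nlrp3 from -0.044 to 0.74 and Tnf from -1.07 to 0.25. For tdT+ against tdT- of CTL mice, the block gave Il18 -0.11 and Il6 -0.62, and leaving out F2 gave Il18 -0.074, Pycard -0.0090 and Tnf 0.27. With each library left out, Casp1 ranged from -0.029 to 0.32, Il10 from -0.22 to 0.71, Il18 from -0.074 to 0.15, Il1b from -0.17 to 0.82, Il6 from -0.19 to 0.85, Pycard from -0.0083 to 0.31 and Tnf from -1.04 to 0.27. For tdT- against MG in BLZ945 mice, Il18 was 0.044 with relative log expression factors and with DESeq2, and ranged from -0.41 to 0.16 with each library left out. For the difference of the BLZ945 effects, the block gave Il18 -0.10 and Il1b -0.12, and leaving out F2 gave Casp1 -0.056, Il18 -0.29 and Il6 0.36. With each library left out, Casp1 ranged from -0.10 to 0.29, Il18 from -0.33 to 0.23, Il1b from -0.24 to 1.03, Il1rn from -0.26 to 1.49, Il6 from -0.82 to 0.29 and Nlrp3 from -0.035 to 0.27.

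Counts of called genes over the whole table moved more. In MG, BLZ945 against CTL, 46 (0.408%) became 193 without a filter, 1.28% of the genes tested with DESeq2, 89 with the block, 12 in a model of all 23 libraries and 94 without F2. In tdT- sdCAMs, BLZ945 against CTL, 0 became 73 with DESeq2 and 29 in the model of 23, with 697 at an unadjusted p under 0.05. For tdT+ against tdT- in BLZ945 mice, 27 became 189 with DESeq2, 82 in the model of 23 and 6 with the block. For tdT+ against tdT- of CTL mice, 37 became 61 without a filter, 228 with DESeq2 and 121 in the model of 23. For the difference of effects, 5 became 9 without a filter, 110 with DESeq2, 1 each with the block and the model of 23, and 0 without F2. With each library left out, the count in MG fell to between 22 and 29 without CTL F1, F2 or M1 or BLZ945 F3, M1 or M2 and rose to 94 without BLZ945 F2 and 102 without CTL M2. For tdT+ against tdT- in BLZ945 mice it fell to 16 without tdT+ F2 and 17 without tdT+ F3 or tdT- M1, and against CTL to 21 without tdT+ F2. For the difference of effects it ran from 0 without MG CTL F2 or M1 to 36 without tdT- BLZ945 F1.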

Other observations

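Il1r2, the decoy receptor that takes up IL-1 without signalling, was at or under 2.73 CPM in all MG and tdT- CTL libraries. In tdT- sdCAMs of BLZ945 mice it stood at 18.1, 8.01, 11.9, 0.487 and 0 CPM, so 3 of 5 libraries lay above every MG and tdT- CTL library. The log2 fold change of Il1r2 against tdT- CTL was 7.01 (SE 1.99), which edgeR did not call (adjusted p = 0.540), and with at most 3 counts in a tdT- CTL library its size is no bound. It reached 4.71 CPM in 1 tdT+ library and was at 0 in the other two.

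Il1rl2, the receptor of the IL-36 cytokines, had means of 30.3 CPM in MG CTL, 31.0 CPM in MG BLZ945, 8.08 CPM in tdT- CTL, 3.22 CPM in tdT- BLZ945 and 9.59 CPM in tdT+ BLZ945. It was called lower in tdT- sdCAMs than in MG of BLZ945 mice, at a log2 fold change of -3.25 by edgeR, and at -3.93 without tdT- BLZ945 F1. The value in CTL mice, -1.90, was called in 8 of 15 alternatives. The call was lost with the replicate block, without MG CTL M1, F2 or F3, and without tdT- CTL M1, F2 or M2, with values from -2.02 to -1.64 and adjusted p from 0.0549 to 0.0714.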
